A study of Schizosaccharomyces pombe 972h- with 4 samples.

Results

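The transcripts of 5 genes of the mitochondrial ATP synthase were followed on fission yeast (Schizosaccharomyces pombe) expression arrays. They are 4 subunit genes, atp3 (SPBC1734.13), atp16 (SPBC13E7.04), SPCC1840.06c (atp5) and atp7 (SPBC29A10.13), and the gene of the ATPase inhibitor, inh1 (SPCC70.02c). The 5 were picked by systematic name out of 4997 array targets, of which 1649 could be paired with a name through the study's gene lists. All 5 were found, atp3, atp7 and atp16 on chromosome II and SPCC1840.06c and inh1 on chromosome III. Of 14 other subunit genes looked for, 2 could be paired with a target, atp14 and tim11, and the rest were not analysed here.

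The study compared wt cells with cells deleted for Ofd2 (Ofd2Δ), a dioxygenase of histone H2A, before and after hypoxia. Both strains were grown to exponential phase at 30 °C in YES medium with 2% glucose and then cultured for 90 min either in normal oxygen (20%) or in hypoxia (below 1% oxygen, kept with the AnaeroGen system). The 4 conditions were therefore wt in normal oxygen, Ofd2Δ in normal oxygen, wt in hypoxia and Ofd2Δ in hypoxia. Both strains are of mating type h-, and the Ofd2Δ cells come from a single strain, DL1003, in which the gene was replaced with a KAN cassette (Ofd2ΔKAN). RNA of 2 independent experiments was pooled, and each condition was read on 1 array. No difference between conditions could therefore be tested, and the errors given are the spread between spots of one array or between its 2 blocks, which is technical.

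The ATP synthase (F1Fo) of the inner mitochondrial membrane makes ATP from the proton gradient that the respiratory chain builds up. Protons passing through the membrane part, Fo, turn a ring and the central stalk, and the turning stalk drives ATP formation in the catalytic head, F1, which a peripheral stalk holds still. When the gradient is lost the enzyme can run backwards and hydrolyse ATP, a reaction that the inhibitor protein blocks. Fission yeast ferments glucose but depends on its mitochondrial DNA under most conditions, and the genes below are all encoded in the nucleus.

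A level here is the normalised intensity of a target on a linear scale, the mean of its 2 blocks, each of 7 probes of 60 bases. A hypoxia ratio is the level in hypoxia over that in normal oxygen. A gene was counted as lower at a ratio of at most 1/2 or, in a second count, 1/1.5, and as different between the strains where the 2 hypoxia ratios differed by at least 1.5-fold. Hybridisation differs between probes, so the level of one gene was not set against that of another. The 4 arrays were not alike in brightness. The median gene spot was 7529 for wt and 6597 for Ofd2Δ in normal oxygen and 7045 for wt in hypoxia, against 4009 for Ofd2Δ in hypoxia, whose file header gives it a scan apart from those of the other 3. Every difference between the strains in hypoxia, and the hypoxia ratio of Ofd2Δ, includes that array, and strain and scan cannot be told apart there. The spot ratios of a target also spread more in Ofd2Δ, with a median SD over all targets of 0.37 on the log2 scale against 0.16 in wt. The dimmest spot of the 5 genes was still at 3.24 times the 95th percentile of the controls on the Ofd2Δ hypoxia array and 9.88 times on the array of wt in normal oxygen. The deleted gene could not be used to check the strains, since no target carried its name in the lists used.

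All 5 genes were lower in hypoxia than in normal oxygen in both strains, as 43.1% of all targets were in wt and 46.1% in Ofd2Δ. In wt the ratios ran from 0.425 for inh1 to 0.734 for atp3, with a median of 0.578, and in Ofd2Δ from 0.360 for inh1 to 0.709 for atp3, with a median of 0.465. Over all targets the median ratio was 1.02 in either strain. In wt 4 of the 5 genes were at least 1.5-fold lower, against 2.28% of all targets, and 1 of them, inh1, at least 2-fold, against 0.640%. The wt count at 1.5-fold was 3 with normexp or no background correction and with the probes nearer the end of the target alone, where atp16 was at 0.669, 0.673 and 0.681. In Ofd2Δ the same 4 genes were at least 1.5-fold lower, against 2.88% of all targets, and 3, inh1, SPCC1840.06c and atp7, at least 2-fold, against 1.00%. The probes nearer the end of the target alone put atp16 at 0.716 in Ofd2Δ and left 3 genes at 1.5-fold. All 5 passed it in Ofd2Δ with block 2 alone and with the probes nearer the start alone, where atp3 was at 0.655 and 0.656. At 2-fold, atp7 was lost in Ofd2Δ with block 1 alone (0.513) and SPCC1840.06c with the probes nearer the start alone (0.529). When the arrays were only scaled to a common median, atp7 was at 0.559 and atp16 at 0.754 in Ofd2Δ, short of these marks, and atp3 at 0.606 passed the lower one. None of the 5 was higher in hypoxia in either strain. These counts are no independent evidence of a fall, because inh1, SPCC1840.06c and atp16 stand on the study's lists of genes lowered 2-fold in both strains and atp7 on the list for Ofd2Δ, and those lists were made from these arrays. Of these, atp7 and atp16 could be named only through those lists. Only atp3 stands on neither.

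**Figure D1:**
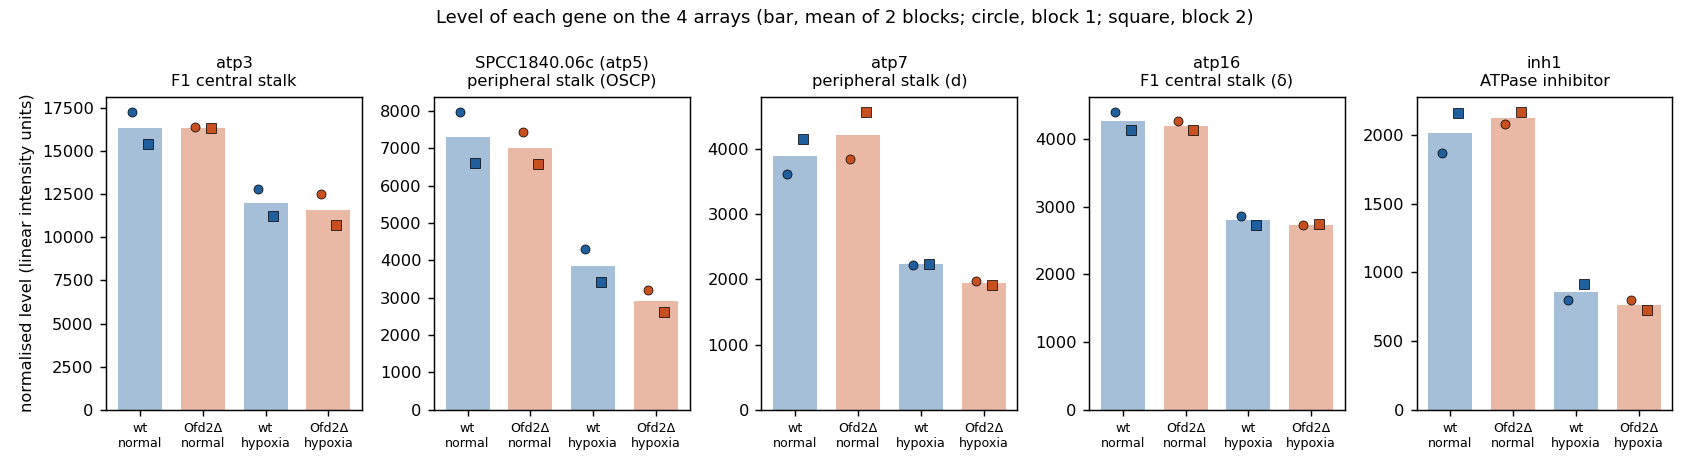
Normalised level (linear intensity units, y axis from 0) of the 5 genes on the 4 arrays, wt in blue and Ofd2Δ in orange. Bars are means of 2 blocks and points the blocks; in every panel both hypoxia bars stand below both normal oxygen bars, from inh1 (2016 to 856 in wt) to atp3 (16347 to 11998).

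The central stalk drives the catalytic head by turning, and the γ subunit encoded by atp3 is its shaft. The level of atp3 was 16347 in wt and 16363 in Ofd2Δ in normal oxygen, against 11998 in wt and 11607 in Ofd2Δ in hypoxia. The strains lay close to each other in both conditions, and the hypoxia arrays were the low ones in either strain. The hypoxia ratio was 0.734 in wt (0.739 and 0.728 in the 2 blocks) and 0.709 in Ofd2Δ (0.764 and 0.655). Neither passed the 1.5-fold mark. In wt all 14 spots were lower in hypoxia, with ratios between 0.659 and 0.896 (SD 0.13 on the log2 scale). In Ofd2Δ 12 of 14 were lower and 2 higher, with ratios between 0.372 and 1.16 (SD 0.44). Although its change was the smallest of the 5, atp3 had the 187th lowest hypoxia ratio of 4997 targets in wt and the 194th lowest in Ofd2Δ. In Ofd2Δ atp16 changed less than atp3 with scaling to a common median (0.754 against 0.606) and in block 2 alone (0.663 against 0.655).

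The δ subunit, encoded by atp16, sits at the foot of the central stalk where it meets the ring in the membrane. Its level was 4271 in wt and 4200 in Ofd2Δ in normal oxygen, against 2799 in wt and 2733 in Ofd2Δ in hypoxia. In these values the strains nearly coincided and the 2 hypoxia arrays were low. The hypoxia ratio was 0.656 in wt (0.650 and 0.661 in the 2 blocks) and 0.651 in Ofd2Δ (0.638 and 0.663), the closest pair of ratios among the 5 genes in the probe files. The deposited value table gave 0.470 in wt and 0.298 in Ofd2Δ, the pair furthest apart there. All 14 spots were lower in hypoxia in each strain, between 0.468 and 0.755 in wt (SD 0.17 on the log2 scale) and between 0.415 and 0.865 in Ofd2Δ (SD 0.31).

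SPCC1840.06c encodes the OSCP subunit (atp5), which joins the top of the peripheral stalk to the catalytic head. Its level was 7299 in wt and 6999 in Ofd2Δ in normal oxygen, against 3860 in wt and 2912 in Ofd2Δ in hypoxia. The strains were close in normal oxygen and Ofd2Δ was the lower one in hypoxia. The hypoxia ratio was 0.528 in wt (0.538 and 0.518 in the 2 blocks) and 0.415 in Ofd2Δ (0.433 and 0.397), the 40th and the 22nd lowest of all targets. Every spot was lower in hypoxia in both strains, but the spots of Ofd2Δ ranged from 0.143 to 0.841 (SD 0.62 on the log2 scale), the widest spread among the 5 genes, against 0.355 to 0.685 in wt (SD 0.23).

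The spots in Ofd2Δ differed between probes, with no steady trend along the target. The 6 spots of the 3 probes that start at bases 440 to 455, which largely overlap in sequence, gave Ofd2Δ ratios of 0.143 to 0.423. The 6 spots of the probes that start at bases 13 to 101 gave 0.430 to 0.841, only just above. In wt the same 2 sets overlapped, at 0.441 to 0.685 and 0.355 to 0.566. The probe furthest along, at base 591, gave 0.432 and 0.491 in Ofd2Δ. For this gene the Ofd2Δ ratio over the wt ratio was 1.16 from the probes nearer the start of the target alone and 0.570 from those nearer its end. By probe it was 1.19 and 1.57 at bases 13 and 28, and 0.522 and 0.370 at bases 440 and 447. At bases 101, 455 and 591 it was alike, at 0.793, 0.822 and 0.796. Why the probes differ was not tested.

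Subunit d of the peripheral stalk is encoded by atp7. Its level was 3886 in wt and 4215 in Ofd2Δ in normal oxygen, against 2235 in wt and 1944 in Ofd2Δ in hypoxia. Ofd2Δ was thus the higher strain in normal oxygen and the lower one in hypoxia. The hypoxia ratio was 0.578 in wt (0.616 and 0.539 in the 2 blocks) and 0.465 in Ofd2Δ (0.513 and 0.418). All 14 spots were lower in hypoxia in each strain, between 0.496 and 0.704 in wt (SD 0.15 on the log2 scale) and between 0.292 and 0.739 in Ofd2Δ (SD 0.34), and 13 of 14 by at least 1.5-fold in either strain.

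The inhibitor gene inh1 had the lowest ratio of the 5 genes in wt, and in Ofd2Δ too except with scaling to a common median (0.470 against 0.416 for SPCC1840.06c), with the probes nearer the end of the target alone (0.350 against 0.332 for SPCC1840.06c) and in the deposited value table (0.381 against 0.298 for atp16). Its level was 2016 in wt and 2128 in Ofd2Δ in normal oxygen, against 856 in wt and 765 in Ofd2Δ in hypoxia. As for atp7, the strain with the higher level was Ofd2Δ in normal oxygen and wt in hypoxia, an order that did not hold for either gene with scaling to a common median. The strains were nearer to each other than the conditions. The hypoxia ratio was 0.425 in wt (0.427 and 0.422 in the 2 blocks), a fall of 57.5%, and 0.360 in Ofd2Δ (0.385 and 0.335), a fall of 64.0%, in each strain the 15th lowest of 4997. All 14 spots were at least 2-fold lower in wt, between 0.315 and 0.474 (SD 0.16 on the log2 scale). In Ofd2Δ 13 of 14 were, between 0.257 and 0.728 (SD 0.37). The probes of inh1 start between bases 11 and 155 of the target, and in wt no trend along them is visible.

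Over the 5 genes together, 70 of 70 spots were lower in hypoxia in wt, and 68 of 70 in Ofd2Δ. The shares over all spots were not computed. For single genes, all 14 spots were lower for 5 of 5 in wt and 4 of 5 in Ofd2Δ, where the shares over all targets were 8.08% and 2.92%. For each of the 5, every hypoxia block of both strains lay below every normal oxygen block, which held for 9.63% of all targets. The spots of one gene share their RNA and array and are not replicates of the condition.

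**Figure D2:**
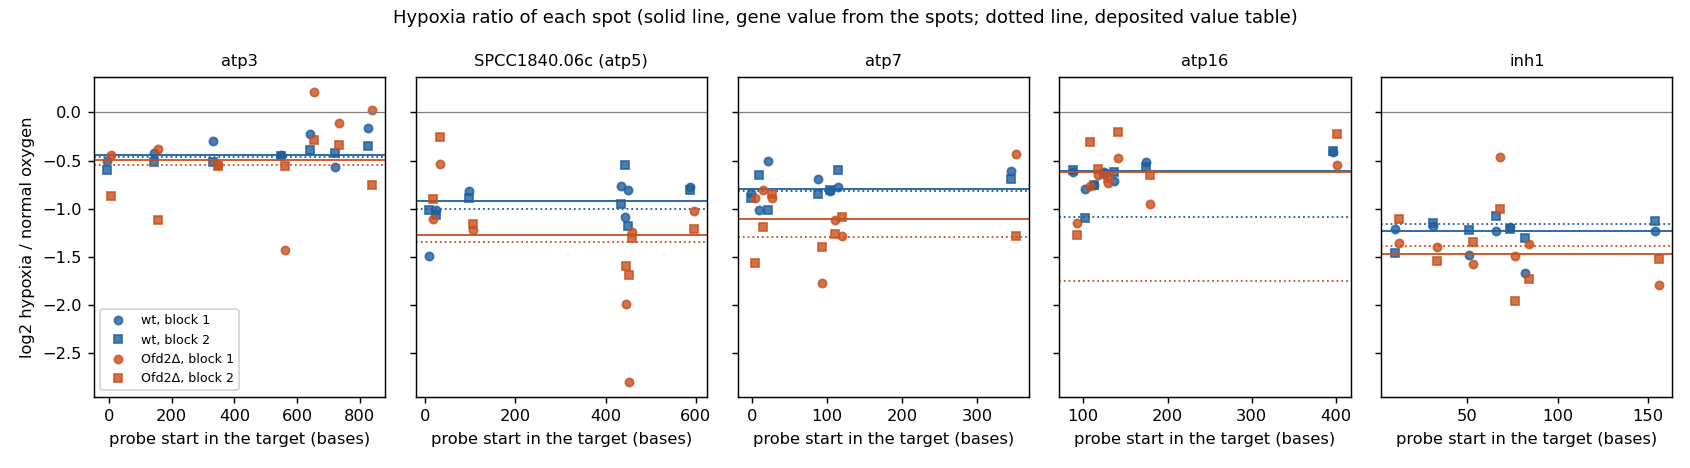
Log2 hypoxia ratio of each spot (y axis) against the start of its probe in the target in bases (x axis), wt in blue and Ofd2Δ in orange, circles for block 1 and squares for block 2. Solid lines are the gene values from these spots and dotted lines those of the deposited value table; the Ofd2Δ spots scatter more widely than the wt spots, and for atp16 the dotted Ofd2Δ line lies below all 14 spots.

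After quantile normalisation, with all probes and both blocks, the hypoxia ratio was lower in Ofd2Δ than in wt for all 5 genes. For none was the difference 1.5-fold, but with scaling to a common median the ratio was higher in Ofd2Δ for inh1 and atp16 (1.16 for each). After quantile normalisation the Ofd2Δ ratio over the wt ratio was 0.786 for SPCC1840.06c, 0.805 for atp7, 0.847 for inh1, 0.967 for atp3 and 0.993 for atp16. A value below 1 was found for 48.3% of all targets and a difference of 1.5-fold in either direction for 2.70%. Among all targets the values of SPCC1840.06c and atp7 were at the 4.38 and 5.98 percentiles, that of inh1 at 11.2, and those of atp3 and atp16 at 39.5 and 46.5, near the middle. Single spots spread over more than these differences, with an SD of the spot values between 0.37 and 0.69 on the log2 scale. Of the 70 spots 45 had the lower ratio in Ofd2Δ. The share over all spots was not computed, so this count alone shows no difference between the strains. By gene these were 7 of 14 for atp3 and for atp16, 10 for SPCC1840.06c and for inh1, and 11 for atp7. Both blocks gave a value below 1 for SPCC1840.06c, atp7 and inh1. For atp3 the blocks gave 1.03 and 0.900, and for atp16 0.983 and 1.00. The probes nearer the start of the target alone gave 1.16 for SPCC1840.06c and 1.03 for atp16. Those nearer the end alone gave 1.08 for atp3, 1.05 for atp16 and 0.570 for SPCC1840.06c, the last past 1.5-fold. With the spots below an intensity of 20000 alone atp3 was at 1.08.

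In normal oxygen the strains differed little in these genes. The Ofd2Δ level over the wt level was 0.962 for SPCC1840.06c, 0.984 for atp16, 1.00 for atp3, 1.06 for inh1 and 1.08 for atp7. In hypoxia it was 0.755 for SPCC1840.06c, 0.870 for atp7, 0.900 for inh1, 0.967 for atp3 and 0.977 for atp16, below 1 for each, but with scaling to a common median it was above 1 for atp7 (1.03), atp16 (1.13) and inh1 (1.13). It was also above 1 for SPCC1840.06c (1.04) and atp16 (1.03) with the probes nearer the start of the target alone. With those nearer the end alone it was above 1 for atp3 (1.08). With all probes of the probe files none of the 5 differed by 1.5-fold in either condition, where 0.300% of all targets did in normal oxygen and 2.34% in hypoxia. With the probes nearer the end alone SPCC1840.06c was at 0.635 in hypoxia, past 1.5-fold. In the deposited value table atp16 was at 0.600 in hypoxia, past 1.5-fold. SPCC1840.06c was the gene furthest from 1 in hypoxia under both scalings (0.757 with the common median), on the array that was scanned apart.

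**Figure D3:**
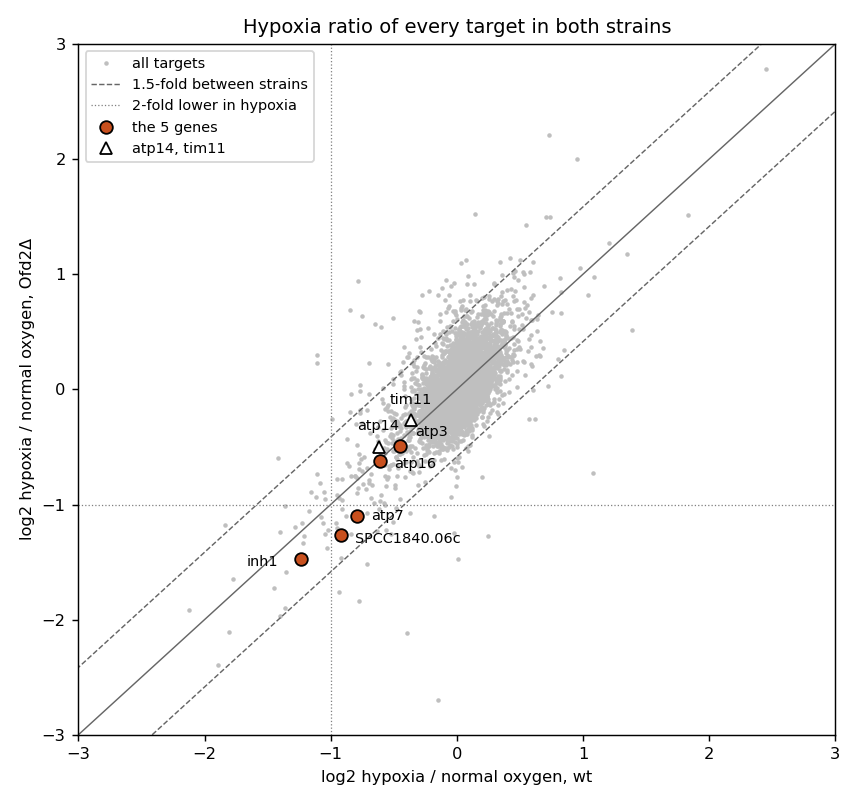
Log2 hypoxia ratio in wt (x axis) and in Ofd2Δ (y axis) of all 4997 targets (grey), the 5 genes (orange) and atp14 and tim11 (triangles). The solid line marks equal ratios, the dashed lines a 1.5-fold difference between the strains and the dotted lines a 2-fold fall; the 5 genes lie between the solid and the lower dashed line, with atp16 (0.656 and 0.651) nearly on the solid one. With scaling to a common median inh1 and atp16 would lie above it.

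The authors' own normalised values gave other ratios for 1 of the 5 genes. In the deposited value table atp16 had a level of 3875 in wt and 3688 in Ofd2Δ in normal oxygen, against 1815 in wt and 1089 in Ofd2Δ in hypoxia. There the hypoxia arrays were not only low but also apart from each other, unlike in the spots. The ratios were 0.470 in wt and 0.298 in Ofd2Δ, and the strains differed by more than 1.5-fold (0.635). Of the 14 spots on the arrays 1 was as low as that ratio in wt and 0 in Ofd2Δ, where the lowest spot was at 0.415. Over all targets the deposited ratio was below all spots for 7 targets in wt and 100 in Ofd2Δ. What separates the 2 sources for atp16 was not tested.

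For the other 4 genes the deposited ratios were near those from the spots. They were 0.728 in wt and 0.683 in Ofd2Δ for atp3, 0.500 and 0.393 for SPCC1840.06c, 0.568 and 0.407 for atp7, and 0.447 and 0.381 for inh1. With these values 4 of the 5 genes were at least 1.5-fold lower in each strain (2.26% of all targets in wt and 2.38% in Ofd2Δ). The count at 2-fold was 3 in wt and 4 in Ofd2Δ (0.580% and 0.841%), and atp16 was the 1 gene of the 5 outside the 1.5-fold limit between the strains (1.60%). These counts are no independent evidence, because the study's lists of genes lowered 2-fold were made from these deposited values. Of the 5 genes, atp7 and atp16 were named only through those lists. Across all targets the log2 ratios of the sources were correlated with r = 0.945 in wt and 0.602 in Ofd2Δ, and the Ofd2Δ ratio over the wt ratio with r = 0.308 (targets share the arrays and are not replicates). The sources differed by 1.25-fold or more for 0.720% of targets in wt and 18.2% in Ofd2Δ.

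**Figure D4:**
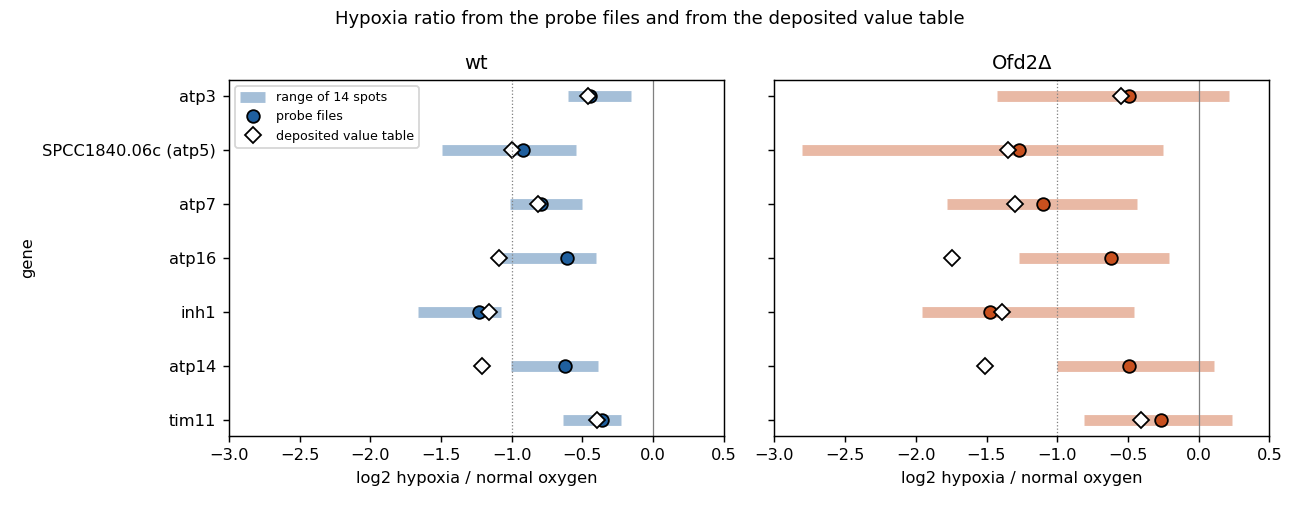
Log2 hypoxia ratio (x axis) in wt (left) and Ofd2Δ (right) of the 5 genes, atp14 and tim11, from the probe files (circles) and from the deposited value table (diamonds), with the range of the 14 spots as a band and a 2-fold fall as a dotted line. The diamonds lie near the circles except for atp16 (0.298 against 0.651 in Ofd2Δ) and atp14 (0.351 against 0.709).

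The 2 further subunit genes that carried a name were lower in hypoxia as well, but atp14 could be named only through the study's lists of lowered genes. atp14, which encodes subunit h of the peripheral stalk and stands on both of the study's lists of lowered genes, had a level of 11932 in wt and 11398 in Ofd2Δ in normal oxygen, against 7769 in wt and 8080 in Ofd2Δ in hypoxia. Its ratios were 0.650 in wt and 0.709 in Ofd2Δ, so that here the wt ratio was the lower one. The deposited table gave 0.432 and 0.351, both below all 14 spots, as the Ofd2Δ ratio of atp16 was. tim11, which encodes subunit e, a small membrane protein that links ATP synthase complexes into dimers in budding yeast, had ratios of 0.777 in wt and 0.832 in Ofd2Δ and stands on neither list. Its annotated span overlaps that of ada1 on the chromosome. The 7 genes together had a median of 0.650 for wt and 0.651 for Ofd2Δ. At least 1.5-fold lower were 5 and 4 of the 7, against 2.28% and 2.88% of all targets. These counts are no independent evidence, since 5 of the 7 stand on the lists of lowered genes and 3 were named only through them. From the deposited table these medians were 0.500 and 0.393.

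Genes of the same pathway were read beside the 5, as lists of which only part carried a name. The respiratory chain, which builds the proton gradient, had ratios below 1 for most of its named genes. Of 14 named genes of the bc1 complex, cytochrome c oxidase, cytochrome c and the NADH and succinate dehydrogenases, 13 were lower in hypoxia in each strain, 9 by 1.5-fold in wt and 10 in Ofd2Δ. Over all targets 43.1% were lower in wt and 46.1% in Ofd2Δ, and 2.28% and 2.88% by 1.5-fold. The ratios of the 14 genes had a median of 0.604 for wt and 0.598 for Ofd2Δ. Of these 14, 7 stand on the study's lists of lowered genes. The other 7, named without those lists, had medians of 0.672 in wt and 0.678 in Ofd2Δ, and 3 of them were 1.5-fold lower in each strain. The exception in direction was sdh3, a membrane anchor of succinate dehydrogenase, at 1.14 in wt and 1.31 in Ofd2Δ.

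Within the chain the 6 named genes of the bc1 complex had a median of 0.601 for wt and 0.590 for Ofd2Δ, from qcr7 at 0.491 and 0.385 to qcr2, a core protein, at 0.697 and 0.636. The 4 named subunits of cytochrome c oxidase had medians of 0.672 and 0.679, with cox9 lowest in wt at 0.585 and cox12 highest at 0.724. cyc1, the gene of cytochrome c, was at 0.544 in wt and 0.465 in Ofd2Δ in the probe files and at 0.244 and 0.151 in the deposited value table. In the probe files inh1 lay below all 14 of these genes in both strains. In the deposited table cyc1 and nde1, an NADH dehydrogenase (0.326 in wt and 0.167 in Ofd2Δ), lay below inh1 in both (0.447 and 0.381). In Ofd2Δ qcr8 (0.346) and qcr10 (0.360) lay below inh1 there as well. No gene of the chain was outside the 1.5-fold limit between the strains in the probe files. In the deposited values 5 genes were, all lower in Ofd2Δ, against 1.60% of all targets outside the limit. They were qcr2 (0.647), qcr8 (0.632) and qcr10 (0.603) of the bc1 complex, cyc1 (0.618) and nde1 (0.513), and atp16 was too (0.635). All 5 stand on the study's list of genes lowered in Ofd2Δ, which was made from these deposited values. The count is therefore no independent evidence. The medians of the 14 genes from the deposited table were 0.612 in wt and 0.509 in Ofd2Δ.

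Genes that carry the products of the ATP synthase or belong to its surroundings were less uniform. anc1, the carrier that exchanges ADP and ATP across the inner membrane, was at 0.802 in wt and 0.825 in Ofd2Δ, and SPBC1703.13c, of the phosphate carrier family, at 0.523 and 0.520. atp23, a protease and chaperone needed for assembly of the enzyme, was at 1.01 and 1.20. Named genes of other proton pumps were vma8 (1.02 and 1.16) and vph2 (0.977 and 1.13), which belong to the vacuolar ATPase or its assembly, and pma2 (0.826 and 0.932), a proton ATPase of the plasma membrane. None of these but SPBC1703.13c was lower by 1.5-fold in either strain in the probe files. That gene could be named only through the study's list of genes lowered in Ofd2Δ. In the deposited value table anc1 was also past 1.5-fold in Ofd2Δ (0.644).

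Mitochondrial genes with other functions lay near the middle of all targets. The 13 named genes of the mitochondrial ribosome had a median of 0.981 for wt and 0.993 for Ofd2Δ, between mrpl31 at 0.789 and mrps17 at 1.03 in wt. The 6 named genes of mitochondrial protein import had medians of 0.999 and 1.05, between 0.950 for tim23 and 1.10 for tim9 in wt. None of these 19 genes was lower by 1.5-fold in either strain, and all 5 ATP synthase genes had a lower ratio than any of them in each strain. The lists hold different numbers of named genes and no test was made between them.

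**Figure D5:**
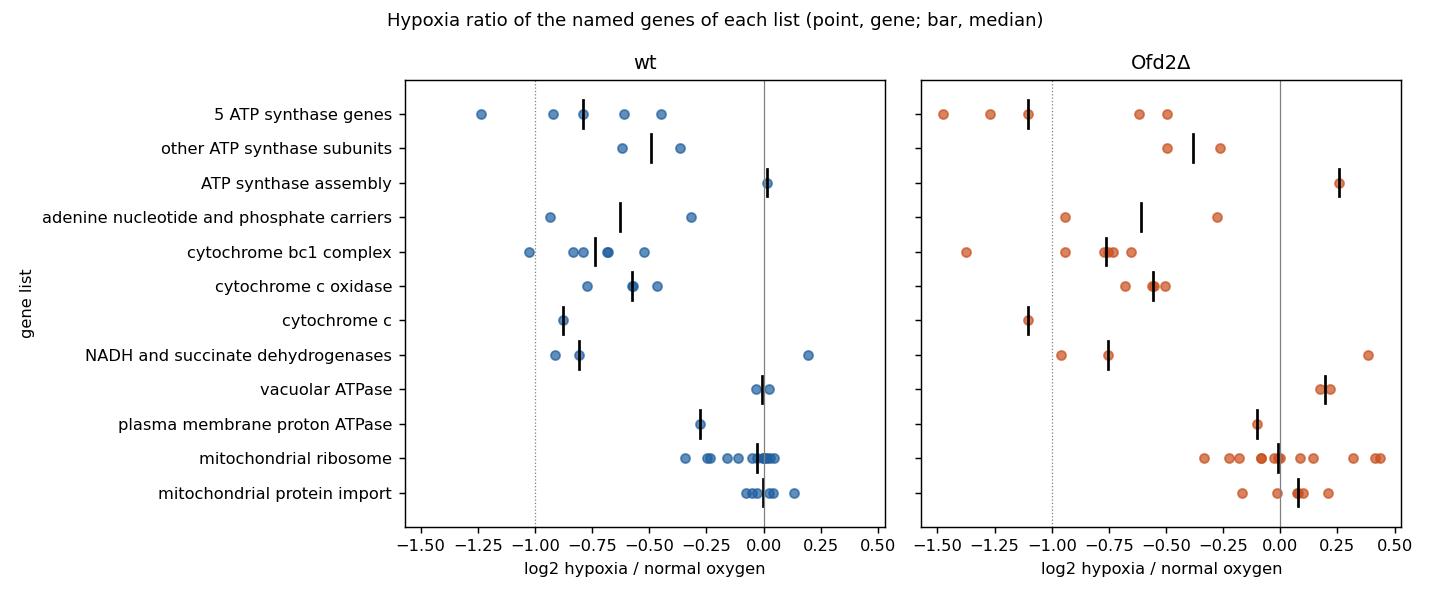
Log2 hypoxia ratio (x axis) in wt (left) and Ofd2Δ (right) of each named gene (points) by list, with the list median as a bar and a 2-fold fall as a dotted line. All values are from the probe files. The ATP synthase and respiratory chain genes lie mostly between 0.36 and 0.83, and the genes of the mitochondrial ribosome and of protein import lie around 1.

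The named genes next to atp3, SPCC1840.06c and inh1 on their chromosomes were near 1 in wt, and no neighbour of atp7 or atp16 carried a name. Of 10 neighbouring genes 6 carried a name, alg12 and suc1 beside atp3, pgm2 and SPCC1840.07c beside SPCC1840.06c, and adn3 and put1 beside inh1. Their ratios were 0.949 to 1.08 in wt and 0.740 to 1.08 in Ofd2Δ. In either strain 0 of 6 were 1.5-fold lower, which is near the shares over all targets, 2.28% in wt and 2.88% in Ofd2Δ.

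The named genes nearest in pattern to the mean of the 5 were found from the distance between their log2 profiles over the 4 arrays, each centred on its own mean, among 1240 named targets above the 25th percentile of level. The nearest was SPBC1703.13c (distance 0.10), which was named only through the list of genes lowered in Ofd2Δ. It was followed by oca2, a protein kinase (0.12), cyc1 (0.13), ndi1, an NADH dehydrogenase of the inner membrane (0.15), and ups2 (0.16). Of the 5 genes themselves atp7 lay at 0.09 from the mean, and atp3 and inh1, at 0.43 and 0.46, were the furthest from it. Taken one at a time, the gene nearest to atp3 was trz2 (0.04), to SPCC1840.06c nce103, a carbonic anhydrase (0.08), to atp7 oca2 (0.13), to atp16 mtm1 (0.07) and to inh1 mic26, of the cristae junction complex of the inner membrane (0.05). The 4 points share 1 normalisation, and with so few of them genes with ratios of similar size are near each other whatever their function.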

How the data were processed

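RNA of 4 samples (wt and Ofd2Δ, normal oxygen and hypoxia, 90 min) had been labelled and hybridised by the array service, 1 array each. The authors deposited the intensity of every probe spot, extracted with NimbleScan 2.4.31 and not normalised, and a value table with 2 normalised intensities per target on a linear scale, for which the submitters' processing notes name RMA. How the arrays were scaled in that table, and which of its blocks matches which of the probe files, is not given in the sources used here. The genome build is not given either, so no coordinates are printed.

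Samples were grouped by their labels. Spots of the probe files (69954 gene spots and 2083 control spots per array) were corrected with the RMA convolution background, given a common distribution over the 4 arrays by quantile normalisation, and reduced to 1 value per target and block by median polish, in Python 3.11.15 with numpy 2.4.6. Ratios are the mean of the 2 block ratios. The steps were tested on simulated data. Alternatives were another background (limma 3.58.1, normexp with offset 50) or none, another scaling, another summary, each block alone, the probes nearer either end alone, and the deposited table.

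Targets were named through the study's gene lists, of which the largest was held in part (1605 targets, and 44 through the lists of changed genes alone), and RefSeq ASM294v3 gave 1384 symbols. The 5 genes and the 12 lists were chosen with earlier results of these data known. Of a list other than the 5 genes, the lowest and highest ratios in each strain could be named, with further genes named for their role. With 1 array per condition no p-value was computed. The number of arrays limits the precision.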

Additional observations from a re-analysis of the deposited data

Results flagged for a closer look

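For 3 of the 5 genes the order of the strains turned between the conditions, with Ofd2Δ above wt in normal oxygen and below wt in hypoxia, as for 24.2% of all targets. The Ofd2Δ level over the wt level went from 1.08 to 0.870 for atp7, a ratio of hypoxia ratios of 0.805. It went from 1.06 to 0.900 for inh1 (0.847) and from 1.00 to 0.967 for atp3 (0.967). None of these differences was tested, and for atp3 the 2 blocks gave hypoxia ratios of Ofd2Δ over wt of 1.03 and 0.900. The normal oxygen value of atp3 was below 1 with the deposited table (0.978), with the mean of log2 probe values (0.995), with 3 arrays normalised together (0.989) and in block 1 (0.947). It was also below 1 with the probes nearer the start alone (0.985) and with the spots below an intensity of 20000 alone (0.999). The hypoxia value of atp3 was above 1 with the probes nearer the end alone (1.08) and with those dimmer spots alone (1.07), so its turn rests on the setting. For inh1 the hypoxia value was 1.00 in block 1 alone, and the normal oxygen value was 0.967 with the probes nearer the start alone. With scaling to a common median the turn was seen for atp3 (1.04 to 0.869), not for atp7 (1.08 to 1.03), and in the opposite direction for inh1 (0.973 to 1.13).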

How the results depend on the processing

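No paired analysis was possible because each condition has 1 array and the labels carry no replicate numbers. Of 135 values of a gene's hypoxia ratio under the alternatives, 135 stayed below 1 and 132 moved by less than the spread of its spots. The other 3 were atp16 from the deposited table in both strains and inh1 in Ofd2Δ with scaling to a common median (0.470).

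The median ratio of the 5 genes in wt ran from 0.500, with the deposited table, to 0.616, and in Ofd2Δ from 0.393 to 0.559. With atp14 and tim11 added, an alternative chosen after seeing the data, these medians were 0.650 and 0.651. The median of the Ofd2Δ ratio over the wt ratio ran from 0.786 to 0.966. With scaling to a common median it was 0.966, and inh1 turned from 0.847 to 1.16 and atp16 from 0.993 to 1.16. The number of the 5 genes outside the 1.5-fold limit between the strains was 1 with the deposited table (atp16) and 1 with the probes nearer the end of the target alone (SPCC1840.06c). Normalising each strain alone put all targets on a different scale in each strain (a shift of -0.48 on the log2 scale in normal oxygen), so the median level of Ofd2Δ over wt became 0.721 for the 5 genes and 0.721 for all targets.

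Of all targets, 114 were 1.5-fold lower in wt and 144 in Ofd2Δ, but 49 and 75 of those above the 25th percentile of level, and 352 in Ofd2Δ with scaling to a common median. Outside the limit between the strains were 135 targets, 46 above that percentile, 681 with that scaling and 80 with the deposited table. Signal over background was lowest on the Ofd2Δ hypoxia array, where the ratios are the least precise.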
